A study of Mus musculus with 4 samples.

Results

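The nuclear genes of oxidative phosphorylation were examined in RNA-seq libraries of mouse pachytene spermatocytes, germ cells that are pairing and recombining their chromosomes during meiosis. Genes were taken by symbol: the Nduf, Sdh, Uqcr, Cox4 to Cox8, Atp5 and Cyc families of protein-coding genes, with an expected count of at least 10 in at least 2 libraries. Of 96 such genes among 55364 in the tables, 90 met the count rule. They comprise 36 subunits of complex I, 7 complex I assembly factors, 4 genes of complex II, 8 of complex III, 16 of complex IV, 17 of complex V and both cytochrome c genes. The mitochondrially encoded subunits are not analysed here.

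The cells came from mice with a homozygous DDX4 knock-in (KK, 2 libraries) and from wild-type mice (WT, 2 libraries). Ddx4 encodes a germline RNA helicase of germ granules, and the title of the series concerns germ granules, RNA homeostasis and germline development. The labels give only the genotype and the cell type: neither the age of the mice nor the sequence change of the knock-in is stated, nor whether each library was made from a different animal. The p-values measure only how far these samples spread, and that spread may be technical.

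The respiratory chain passes electrons from NADH (complex I) and succinate (complex II) through ubiquinone to complex III, by cytochrome c to complex IV and on to oxygen. The resulting proton gradient drives complex V, the ATP synthase. The testis is known for its own isoforms of some of these proteins: Cyct encodes testis cytochrome c in place of the somatic Cycs, and Cox6b2, Cox7b2 and Cox8c encode germ cell forms of complex IV subunits that other tissues take from Cox6b1, Cox7b and Cox8a.

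Cyct and Cycs share a function but lie far apart in level, so the 250 bases before the start of each are shown, with those before Cox6a1, a complex IV gene higher in KK. Starts are those of RefSeq and can differ from the annotation behind the counts: the last 23 bases of the Cox6a1 window lie inside the gene as annotated there. The sequences are those of RefSeq for GRCm38.p6, all on the minus strand, at chr2:76360454-76360703 for Cyct, chr6:50566570-50566819 for Cycs and chr5:115348959-115349208 for Cox6a1. Capitals mark the letters TGACGTCA of the cAMP response element (CRE) in Cycs and, in Cox6a1, the matches GCGCATGCGC and GCGCAGGCGC to the site of nuclear respiratory factor 1 (NRF1), a regulator of respiratory chain genes. The NRF1 search left the middle base free where these matches differ and allowed no other mismatch. The run tcgcatgcgc in the Cycs window differs from the NRF1 letters in its first base, so it is not marked.
Cyct: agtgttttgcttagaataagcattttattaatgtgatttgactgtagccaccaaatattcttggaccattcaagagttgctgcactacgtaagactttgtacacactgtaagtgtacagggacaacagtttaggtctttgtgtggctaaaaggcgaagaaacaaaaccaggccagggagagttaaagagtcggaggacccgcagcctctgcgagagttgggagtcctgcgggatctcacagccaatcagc
Cycs: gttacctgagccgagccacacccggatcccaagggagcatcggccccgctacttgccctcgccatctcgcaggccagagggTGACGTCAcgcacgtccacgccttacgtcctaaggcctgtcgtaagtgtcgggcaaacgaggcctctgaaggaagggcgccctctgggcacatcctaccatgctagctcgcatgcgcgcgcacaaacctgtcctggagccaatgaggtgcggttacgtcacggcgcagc
Cox6a1: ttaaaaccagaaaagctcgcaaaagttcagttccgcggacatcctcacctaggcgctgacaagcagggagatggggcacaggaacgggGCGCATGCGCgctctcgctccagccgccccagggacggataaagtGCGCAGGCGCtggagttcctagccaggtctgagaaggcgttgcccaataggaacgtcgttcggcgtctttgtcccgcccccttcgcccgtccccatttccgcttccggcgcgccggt

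The Cyct window held none of the 3 motifs searched on both strands (NRF1, CRE and the ETS letters CCGGAAGT). The CRE letters of Cycs began 169 bases before the start, and the first of the 2 NRF1 matches of Cox6a1 began 162 bases before it. Windows were found for 76 of the 90 genes, 81 windows in all. The NRF1 letters stood in 15 of the 81 windows (18.5%), in 14 genes, against 1225 of 32817 windows of all genes (3.73%). The CRE letters stood in 5 of 81 (6.17%) against 508 of 32817 (1.55%), and the ETS letters in 3 of 81 (3.70%) against 944 of 32817 (2.88%). A match is a run of letters and was not tested as a binding site.

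The library totals were 19438570 and 17970207 expected counts in KK and 18156099 and 19246124 in WT, and all 90 genes passed the expression filter of the test. Ddx4 itself had 54.4 and 52.5 TPM (the deposited level, scaled for transcript length and library) in KK against 265 and 273 TPM in WT. Pachytene markers summed to 13858 and 13621 TPM in KK and to 14430 and 14294 TPM in WT. Among these 13 markers, all tested, 9 were lower in KK (69.2%) and 1 was higher (7.69%). On the log2 scale their median change was -0.18. The Leydig cell list stood apart, with 2532 and 2609 TPM in KK against 719 and 756 TPM in WT; 10 of its 11 tested genes were higher in KK, with a median log2 fold change of 0.89. Of the spermatogonial markers 6 of 11 tested were higher and 1 lower, and of spermatid markers 4 and 7 of 12. The spermatid list summed to 19087 and 18597 TPM in KK and to 21466 and 21356 TPM in WT, above the pachytene list in each library. Sertoli markers had 2 higher and 4 lower of 10, and peritubular and endothelial markers 3 and 0 of 7. Macrophage markers had 2 and 0 of 6, and erythroid markers 0 of 2. For comparison, 22.0% of all genes tested were higher and 21.7% lower at an edgeR adjusted p under 0.05. In bulk RNA a change in the share of a cell type and a change in RNA per cell cannot be told apart, and the part of these other cells in the values below was not tested.

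Each testis isoform held nearly all of the RNA of its pair in both genotypes. Cox8c was the most abundant of the 90 genes, with 3121 and 2991 TPM in KK against 2672 and 2753 TPM in WT. Its somatic counterpart Cox8a had 17.1 and 17.2 TPM in KK against 9.47 and 15.5 TPM in WT. Cox8c thus held 99.4% of the TPM of the pair in KK and 99.5% in WT (means, n = 2 each).

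Cox6b2 was the next most abundant gene, with 1522 and 1433 TPM in KK against 1621 and 1563 TPM in WT. Cox6b1 had 31.1 and 29.5 TPM in KK against 22.7 and 19.96 TPM in WT, so both KK libraries lay above both WT libraries. The testis form held 98.0% ± 0.0104 of the pair in KK and 98.7% ± 0.0829 in WT (SD, n = 2 each). These shares did not overlap, yet the exact permutation test gave p = 0.333, the smallest two-sided p that 2 against 2 allows.

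Cox7b2 had 760 and 700 TPM in KK and 724 and 787 TPM in WT, with overlap between genotypes. Cox7b, its X-linked counterpart, had 1.57 and 1.93 TPM in KK and 0.53 and 1.10 TPM in WT. The testis form held 99.8% of the pair in KK and 99.9% in WT (exact permutation p = 0.333). In GRCm38 coordinates Cox8c lies at chr12:102899316-102900526, Cox6b2 at chr7:4751792-4753094 and Cox7b2 at chr5:71442824-71548205. Together Cox8c, Cox6b2 and Cox7b2 made up 56.8% and 57.2% of the TPM of all complex IV genes in KK, against 57.9% and 58.4% in WT.

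Cyct, the electron carrier of the testis, had 227 and 221 TPM in KK and 227 and 249 TPM in WT. Cycs had 3.79 and 6.04 TPM in KK and 3.18 and 4.95 TPM in WT, and both genes overlapped between genotypes. Cyct held 97.9% of the pair in KK and 98.3% in WT (exact permutation p = 0.667). Reads of Cycs can be split with a 99.9% identical coding copy, Gm10053, which had 8.70 and 4.74 expected counts in KK and 3.31 and 0 in WT.

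**Figure D1:**
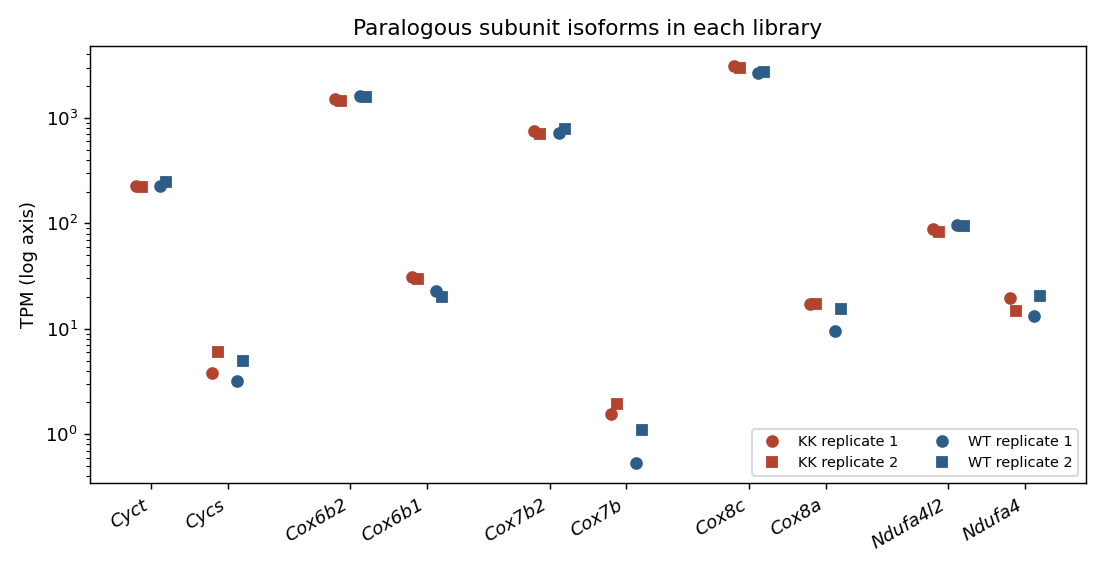
Level in TPM (log axis) of each testis or alternative isoform and its somatic counterpart; each point is a library, KK left of WT. In both genotypes Cyct, Cox6b2, Cox7b2 and Cox8c lie far above their counterparts, and Ndufa4l2 holds 83.4% of its pair in KK and 85.1% in WT.

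A further pair showed the same order without being a testis pair by name. Ndufa4, first assigned to complex I and now placed in complex IV, had 19.5 and 14.8 TPM in KK and 13.3 and 20.4 TPM in WT. Its paralogue Ndufa4l2, known as a hypoxia-induced gene in other cells, had 88.1 and 82.8 TPM in KK against 96.4 and 94.6 TPM in WT. Ndufa4l2 held 83.4% ± 2.10 of the pair in KK and 85.1% ± 3.97 in WT (SD, n = 2 each; exact permutation p = 0.667). Ndufa4l2 lay lower in both KK libraries, but its log2 fold change of -0.16 ± 0.08 (SE) did not pass (edgeR adjusted p = 0.113). With the offset that removes the length trend of each library it was called lower, at -0.28 (edgeR adjusted p = 0.00378).

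Forms known from other tissues were at or near 0. Cox4i2 and Cox8b had 0 counts in all 4 libraries, the muscle form Cox6a2 had 2 and 2 counts in KK and 0 and 4 in WT, and the muscle form Cox7a1 had 2 and 0 in KK and 0 and 0 in WT. These genes fell outside the count rule, as did Ndufaf6, with 8 and 8 counts in KK and 3 and 7 in WT, and a second Atp5o identifier at 0. Just inside it were Ndufa1, with 15 and 19 counts in KK and 6 and 12 in WT, and Cox7b, with 17 and 19 in KK and 5 and 11 in WT.

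The 90 genes spanned 1.28 to 2884 TPM in mean level. Of these, 4 averaged over 1000 TPM: Cox8c, Cox6b2, Uqcrq and Cox4i1. Uqcrq, a small subunit of complex III, had 1364 and 1217 TPM in KK and 1262 and 1239 TPM in WT. Cox4i1, the ubiquitous subunit 4 of complex IV, had 1265 and 1219 TPM in KK and 1229 and 1172 TPM in WT. Both overlapped between genotypes, and their order of level relative to each other was not tested. The 90 genes together held 2.61% and 2.47% of all TPM in KK against 2.44% and 2.46% in WT.

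**Figure D2:**
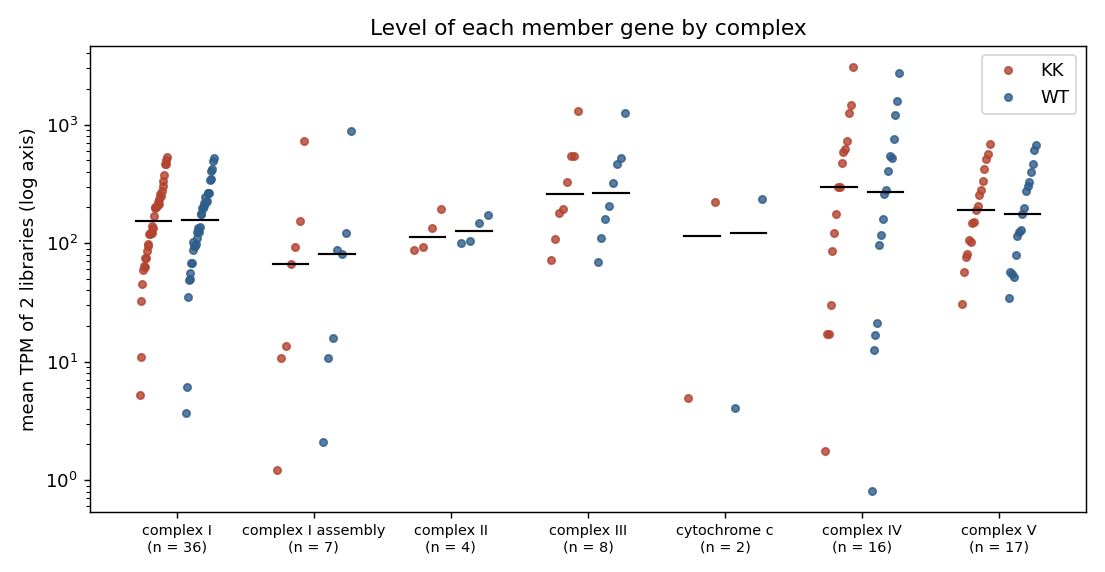
Mean TPM over 2 libraries of each of the 90 genes (log axis) by complex, KK left of WT, with a bar at the median of the group. Complex IV holds both the highest gene, Cox8c, and the lowest, Cox7b.

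Between genotypes the changes were small. In edgeR's quasi-likelihood test over 16571 genes with Benjamini-Hochberg adjustment at 0.05, 19 of the 90 were higher in KK (21.1%) and 8 lower (8.89%). Over all genes tested, 22.0% were higher and 21.7% lower. The share of higher genes was thus near that of all genes, and the share of lower genes was below it. The median log2 fold change was 0.06 over the 90 genes and 0.003 over all genes. In CPM, counts scaled to library size with TMM factors, the 2 KK libraries lay above both WT libraries for 38 of the 90 and below for 16, where 36.0% and 34.8% of all genes did so.

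These counts moved with each library left out and with the offset for transcript length. Without KK replicate 1, 8 genes were higher and 12 lower; without KK replicate 2, 27 were higher and 6 lower. Without WT replicate 1 they were 13 and 8, and without WT replicate 2, 14 and 6. With an offset that removes the trend of each library on effective length, 3 were higher and 23 lower, with a median of -0.06. Over all 16571 genes tested, the same offset gave 3665 higher and 3562 lower. With library size alone as the scaling, 34 were higher and 3 lower, and over all genes 64.2% of the calls were higher, against 50.4% with TMM.

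Uqcrfs1, Atp5f1, Ndufaf3 and Ndufaf7 were called under all 14 alternatives, and the other called genes each lost the call under some. DESeq2 left 10 of the 27 calls out: Atp5g2, Atp5j2, Cox5a, Cox6b1, Cox7a2l, Ndufa7, Ndufb7, Ndufc1, Ndufv1 and Sdhd, at adjusted p from 0.0634 to 0.180. In limma on TPM 12 were lost: Atp5a1, Atp5j, Atp5j2, Cox5a, Cox7a2, Cox7a2l, Ndufa7, Ndufb5, Ndufc1, Ndufs1, Sdha and Sdhd, at adjusted p from 0.0602 to 0.234. Library size scaling in edgeR lost only lower genes: Atp5a1, Atp5j, Ndufb7, Ndufs1 and Sdhd. The length trend offset lost only higher ones, 16 of 19, and left Uqcrfs1, Atp5f1 and Atp5l.

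**Figure D3:**
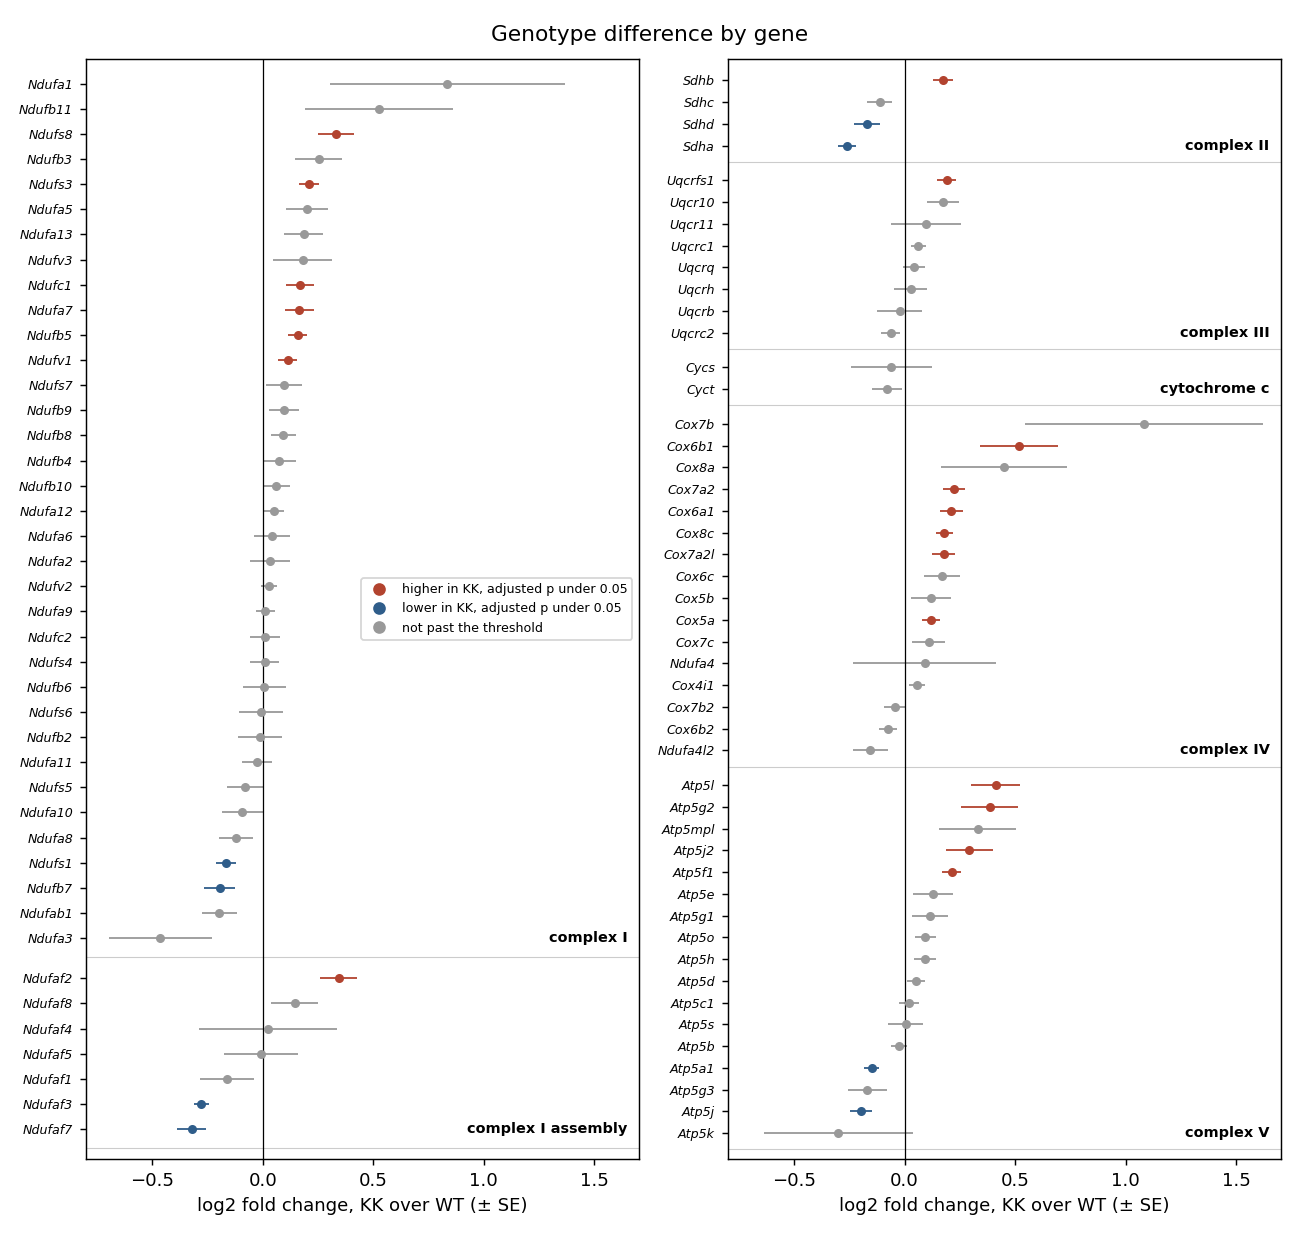
Log2 fold change (KK over WT, with its SE) of 89 of the 90 genes from edgeR, by complex. Among the 27 genes past an adjusted p of 0.05 the values run from -0.32 (Ndufaf7) to 0.52 (Cox6b1).

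In complex I, which oxidises NADH, 6 of 36 subunits were higher, 2 lower and 28 did not pass, with a median log2 fold change of 0.05. That is 16.7% higher and 5.56% lower, where 22.0% of all genes tested were higher and 21.7% lower. Among the 7 core subunits, 3 were higher (Ndufs8, Ndufs3 and Ndufv1) and 1 lower (Ndufs1). Ndufs8, an iron-sulfur subunit, had 46.4 and 46.1 CPM in KK against 35.0 and 38.4 CPM in WT, a log2 fold change of 0.33 ± 0.08 (SE; edgeR adjusted p = 0.00143). Ndufs3, another core subunit, had 112 and 111 CPM in KK against 96.0 and 96.2 CPM in WT, a log2 fold change of 0.21 ± 0.05 (edgeR adjusted p = 0.000537). Neither overlapped between genotypes. Ndufs1, the largest subunit of the complex, ran the other way, with 109 and 107 CPM in KK against 122 and 121 CPM in WT (log2 fold change -0.17 ± 0.04, edgeR adjusted p = 0.00354).

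Among the 29 accessory subunits of complex I, 3 were higher (Ndufc1, Ndufa7 and Ndufb5) and 1 lower (Ndufb7). These are 10.3% and 3.45%, where 22.0% of all genes tested were higher and 21.7% lower. Ndufc1 had 86.1 and 78.9 CPM in KK against 69.1 and 77.7 CPM in WT, and Ndufb7 had 54.8 and 49.7 CPM in KK against 59.2 and 60.4 CPM in WT. The genotypes did not overlap for either gene, and the log2 fold changes were 0.17 ± 0.06 for Ndufc1 and -0.19 ± 0.07 for Ndufb7. Without KK replicate 1, the calls of Ndufc1, Ndufa7, Ndufb5 and Ndufv1 were lost at edgeR adjusted p of 0.348, 0.703, 0.123 and 0.183. Without WT replicate 1 the same 4 calls were lost (0.451, 0.0685, 0.109 and 0.140 in that order), and without WT replicate 2 those of Ndufa7 (0.165), Ndufv1 (0.273) and Ndufb7 (0.102). Without KK replicate 2, Ndufb7 (0.198) and Ndufv1 (0.0638) were lost. With the length trend offset none of the 36 was higher and 8 were lower.

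Ndufs3 overlaps exons of Kbtbd4 on the other strand by 88 bases, and Kbtbd4 had 655 and 571 counts in KK against 363 and 382 in WT. The libraries do not mark strand, so reads in that stretch cannot be assigned to either gene from their strand.

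The 2 X-linked subunits of complex I lay higher in KK by their fitted values without passing. Ndufa1 had 9.06 and 12.95 TPM in KK against 4.29 and 7.84 TPM in WT (log2 fold change 0.83 ± 0.53, edgeR adjusted p = 0.211). Ndufb11 had 6.32 and 4.12 TPM in KK and 4.56 and 2.77 TPM in WT, with overlap (0.53 ± 0.34, adjusted p = 0.212 by edgeR). With Cox7b (1.08 ± 0.54, edgeR adjusted p = 0.105) these 3 X-linked genes were among the lowest in level of the 90. The X chromosome is known to be silenced in pachytene spermatocytes.

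The assembly factors of complex I included the gene with the smallest adjusted p of the 90, which was lower in KK. Ndufaf3 had 630 and 629 CPM in KK against 756 and 771 CPM in WT, which is 1.21-fold lower (log2 fold change -0.28 ± 0.03, edgeR adjusted p = 1.33e-07). Ndufaf7, a mitochondrial methyltransferase, had 51.5 and 52.8 CPM in KK against 65.1 and 65.1 CPM in WT (-0.32 ± 0.07, edgeR adjusted p = 0.000258). Neither overlapped between genotypes. Ndufaf3 overlaps Impdh2 by 48 exonic bases on the other strand, and Impdh2 moved the opposite way, with 2007 and 1873 counts in KK against 895 and 939 in WT. Ndufaf3 was also the fifth most abundant of the 90, at 734 and 732 TPM in KK and 874 and 890 TPM in WT.

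Ndufaf2, an assembly factor related in sequence to Ndufa12, went up: it had 41.3 and 44.3 CPM in KK against 34.2 and 33.2 CPM in WT (0.34 ± 0.08, edgeR adjusted p = 0.00128). Of the 7 factors 14.3% were thus higher and 28.6% lower, where 22.0% of all genes tested were higher and 21.7% lower. The remaining 4 of the 7 factors did not pass. Ndufaf1, at a gene-level log2 fold change of -0.16 ± 0.12 (edgeR adjusted p = 0.296), was one of them, and its transcripts are described with the isoforms.

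Of the 4 genes of complex II, which links the citrate cycle to the chain, 1 was higher (25%) and 2 lower (50%). Among all genes tested, 22.0% were higher and 21.7% lower. The flavoprotein gene Sdha had 166 and 159 CPM in KK against 192 and 198 CPM in WT, and the membrane anchor gene Sdhd had 68.7 and 65.0 CPM in KK against 74.3 and 76.2 CPM in WT. The iron-sulfur gene Sdhb had 128 and 124 CPM in KK against 112 and 111 CPM in WT. None of the 3 overlapped. The log2 fold changes were -0.26 ± 0.04 for Sdha (edgeR adjusted p = 4.2e-06), -0.17 ± 0.06 for Sdhd (0.0206) and 0.18 ± 0.04 for Sdhb (0.00208). Sdhc did not pass (-0.11 ± 0.06, edgeR adjusted p = 0.113), but was called lower in limma on TPM (adjusted p = 0.0270), with the effective length offset (edgeR adjusted p = 0.0367) and with the length trend offset (0.0127).

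On the deposited TPM, which uses an effective length for each library, Sdha had 125 and 143 TPM in KK and 142 and 154 TPM in WT, and its call was lost in limma (adjusted p = 0.234). The call of Sdhd was lost without KK replicate 2 (edgeR adjusted p = 0.112) and without WT replicate 2 (0.123), and that of Sdhb with the length trend offset (0.0924).

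In complex III, which passes electrons on to cytochrome c, 1 of 8 genes was higher and none was lower in edgeR. At an unadjusted p under 0.05 the counts were 2 and 0, and in DESeq2 they were 1 and 0. Over all genes tested, 22.0% were higher and 21.7% lower in edgeR. Uqcrfs1, the Rieske iron-sulfur protein, had 149 and 149 CPM in KK against 128 and 133 CPM in WT, a log2 fold change of 0.19 ± 0.04 (edgeR adjusted p = 0.000532). Uqcrq was at 0.04 ± 0.05 and was not called, but it was called higher without KK replicate 2 (0.14, edgeR adjusted p = 0.00886) and lower with the length trend offset (-0.11, 0.0244). The other 6 genes lay between -0.06 and 0.18. With library size scaling Uqcr10 (edgeR adjusted p = 0.00533) and Uqcrc1 (0.00124) were called higher. Uqcr10 was also called higher with autosomal TMM factors (0.0367) and with a filter at a mean of 1 CPM (0.0367). With the length trend offset Uqcrc2 was called lower (edgeR adjusted p = 0.0224).

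Neither cytochrome c gene passed, in edgeR at an adjusted or unadjusted p under 0.05 or in DESeq2, but Cyct was lower in KK with the length trend offset (log2 fold change -0.23, edgeR adjusted p = 0.00455). In CPM, Cyct had 60.4 and 58.2 in KK and 59.5 and 65.8 in WT (log2 fold change -0.08 ± 0.07, edgeR adjusted p = 0.362). Cycs had 4.98 and 5.77 CPM in KK and 5.39 and 5.78 CPM in WT (-0.06 ± 0.18, adjusted p = 0.824 by edgeR).

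Complex IV, the terminal oxidase, had 6 of 16 genes higher and none lower in edgeR, with a median log2 fold change of 0.14. At an unadjusted p under 0.05 it had 7 higher and 0 lower, and in DESeq2 3 and 0. Over all genes 22.0% were higher and 21.7% lower, and over genes with an effective length of up to 400 bases, which 11 of the 16 have, 26.1% and 4.54%. Cox6b1, the somatic form of the subunit that faces the intermembrane space, had 7.37 and 6.91 CPM in KK against 5.28 and 4.71 CPM in WT, which is 1.43-fold higher (0.52 ± 0.17, edgeR adjusted p = 0.0171). Cox7a2 had 141 and 124 CPM in KK against 111 and 116 CPM in WT (0.22 ± 0.05, edgeR adjusted p = 0.000743). Cox6a1, whose promoter window is printed above, had 95.5 and 92.6 CPM in KK against 79.4 and 83.0 CPM in WT (0.21 ± 0.05, edgeR adjusted p = 0.00129). None of the 3 overlapped between genotypes.

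Of the testis isoforms, Cox8c was higher, with 349 and 326 CPM in KK against 290 and 306 CPM in WT (0.18 ± 0.04, edgeR adjusted p = 0.000477). Cox6b2 and Cox7b2 were not called, at -0.07 ± 0.04 (edgeR adjusted p = 0.132) and -0.04 ± 0.05 (0.515). Both were called lower with the length trend offset (Cox6b2 -0.23, edgeR adjusted p = 5.56e-06; Cox7b2 -0.19, 0.000447) and without KK replicate 1 (0.00803 and 0.0478). Cox7a2l, a factor that joins complexes III and IV into supercomplexes, was higher (110 and 99.7 CPM in KK against 91.5 and 94.3 CPM in WT; 0.18 ± 0.05, edgeR adjusted p = 0.00664), and the sixth higher gene was Cox5a at 0.12. Cox6c (0.17 ± 0.08) and Cox4i1 (0.06 ± 0.04) did not pass. Both were called higher with library size scaling (edgeR adjusted p = 0.0157 for Cox6c and 0.00369 for Cox4i1), and Cox6c also without KK replicate 2 (0.0209). The somatic Cox8a, at 0.45 ± 0.29, did not pass either (edgeR adjusted p = 0.208).

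With the length trend offset none of the 16 complex IV genes was higher and 4 were lower: Cox6b2, Cox7b2, Ndufa4l2 and Cox4i1. Without KK replicate 1, 2 were higher and 2 lower (Cox6b2 and Cox7b2), and the calls of Cox6b1 (edgeR adjusted p = 0.0977), Cox7a2 (0.0963), Cox7a2l (0.269) and Cox5a (0.201) were lost. Without WT replicate 1 those of Cox7a2l (0.0897) and Cox5a (0.187) were lost, and without WT replicate 2 those of Cox6b1 (0.104) and Cox5a (0.120).

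Complex V, the ATP synthase, had 4 of 17 genes higher and 2 lower, where 22.0% of all genes were higher and 21.7% lower. The 4 higher ones encode subunits of the membrane part (Fo) or the peripheral stalk, a group of 11. Atp5l (subunit g) had 20.7 and 17.9 CPM in KK against 15.5 and 13.6 CPM in WT, a log2 fold change of 0.41 ± 0.11 (edgeR adjusted p = 0.00296). Atp5j2 (subunit f) had 31.8 and 25.3 CPM in KK against 24.5 and 22.2 CPM in WT (0.29 ± 0.11, edgeR adjusted p = 0.0257). Atp5f1 (subunit b of the stalk) had 154 and 144 CPM in KK against 127 and 130 CPM in WT (0.21 ± 0.04, edgeR adjusted p = 0.000246). Another 5 genes encode the F1 part, the catalytic head with the central stalk. Of these 0 were higher in edgeR, at an adjusted or an unadjusted p under 0.05, and in DESeq2. In this group 1 gene was lower. With library size scaling the F1 gene Atp5d was called higher (0.13, edgeR adjusted p = 0.00944). Another F1 gene, Atp5e, had a log2 fold change of 0.26 without WT replicate 2. The difference between these groups of subunits was not tested. The lower gene was Atp5a1, the alpha subunit, with 372 and 379 CPM in KK against 411 and 422 CPM in WT (-0.15 ± 0.04, edgeR adjusted p = 0.00112). Atp5j, a coupling factor of the stalk, was also lower, with 96.7 and 99.2 CPM in KK against 107 and 118 CPM in WT (-0.20 ± 0.05, edgeR adjusted p = 0.00185).

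Subunit c, which forms the rotating ring, is encoded by 3 genes with the same mature protein. Atp5g2 was higher, with 12.8 and 12.2 CPM in KK against 10.5 and 8.67 CPM in WT (0.38 ± 0.13, edgeR adjusted p = 0.0168), while Atp5g1 (0.11 ± 0.08) and Atp5g3 (-0.17 ± 0.09) did not pass. Atp5g3 was called lower with the length trend offset (-0.32, edgeR adjusted p = 0.00324) and without KK replicate 1 (-0.26, 0.0459). In level, Atp5g1 had 196 and 183 TPM in KK and 180 and 171 TPM in WT, Atp5g3 107 and 97.5 TPM in KK and 112 and 118 TPM in WT, and Atp5g2 76.0 and 75.8 TPM in KK and 59.9 and 50.8 TPM in WT. The order Atp5g1, Atp5g3, Atp5g2 thus held in all 4 libraries.

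Without KK replicate 1 the calls of Atp5l (edgeR adjusted p = 0.0691), Atp5g2 (0.0900) and Atp5j2 (0.509) were lost, and without WT replicate 2 those of Atp5l (0.0684), Atp5g2 (0.252), Atp5j2 (0.154) and Atp5j (0.124). Atp5l overlaps an antisense gene, Gm30934, by 133 exonic bases, which had 114 and 102 counts in KK against 25 and 27 in WT, and both Atp5l and Atp5g2 have near-identical copies with at least 10 counts. On the other strand, Atp5f1 overlaps Wdr77 by 337 exonic bases (472 and 392 counts in KK, 484 and 522 in WT). It also overlaps Gm42890 by 203 (138 and 177 in KK, 131 and 119 in WT). Atp5j overlaps Gabpa on the other strand by 397 (617 and 519 in KK, 519 and 590 in WT).

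**Figure D4:**
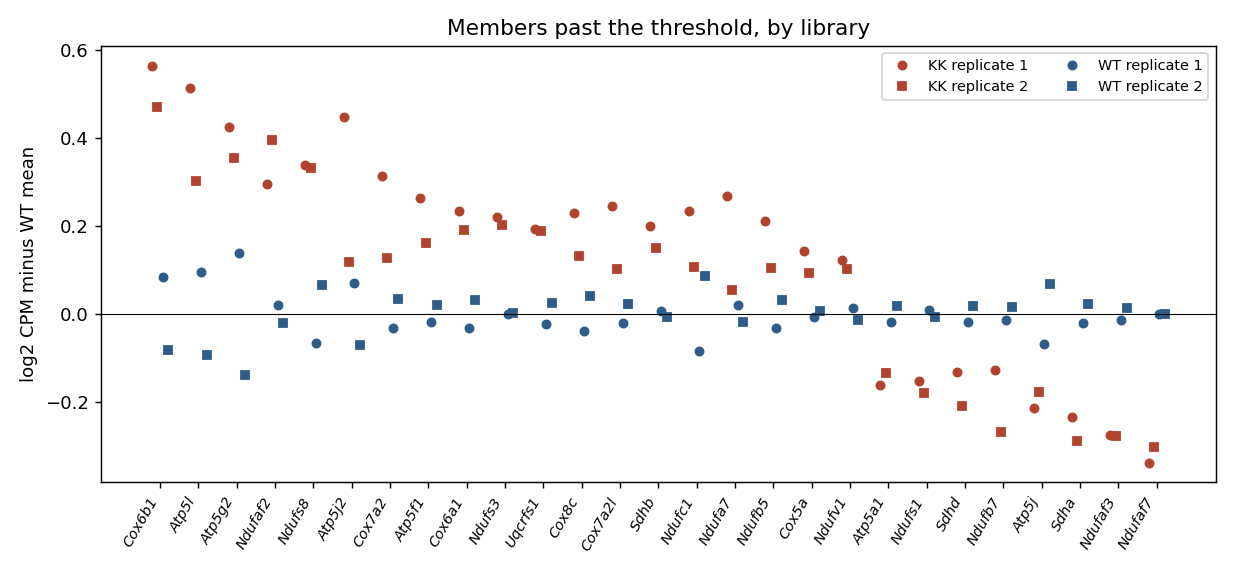
Level of each of the 27 called genes in each library relative to the WT mean (log2 of CPM), KK libraries left of WT. The genes higher in KK sit further up in KK replicate 1 than in KK replicate 2 in most cases.

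The KK libraries differed from each other over these genes. KK replicate 1 lay above KK replicate 2 in CPM for 72 of the 90 (80.0%), against 47.6% of all genes tested and 62.4% of the 1212 genes with an effective length of up to 400 bases. Relative to the WT mean, the median of the 90 was 0.12 (log2) in KK replicate 1 and 0.03 in KK replicate 2, while that of the short genes was 0.18 and 0.10. Short transcripts are common here: 46 of the 90 were in that class. The 46 had a median log2 fold change of 0.10, with 11 higher and 1 lower, beside a median of 0.15 over all genes of that length. In percent, 26.1% of all genes in the class were higher and 4.54% lower. From 400 to 800 bases it was 0.08 over 21 of the 90 and 0.11 over all genes, from 800 to 1600 it was -0.02 over 18 and 0.04 over all genes, and from 1600 to 3200 it was -0.15 over 5 and -0.04 over all genes. In each class the median of the oxidative phosphorylation genes was therefore below that of all genes, and what part of these differences comes from length was not tested.

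**Figure D5:**
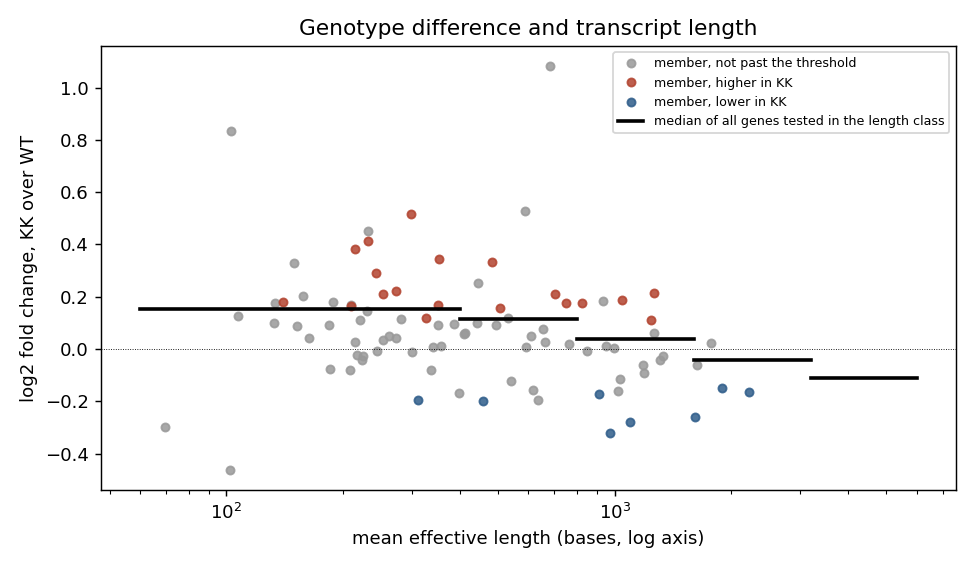
Log2 fold change (KK over WT) of the 90 genes against effective length in bases (log axis), with the median of all genes in each length class. The median of all genes runs from 0.15 in the shortest class to -0.11 above 3200 bases.

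Of the genes with a transcript that reached 30 counts in a library, 36 had 1 such transcript and 51 had more, with 138 transcripts among those 51. The deposited isoform percent gives each transcript's share of its gene. Cyct, Cox8c, Cox6b1 and Ndufa4l2 each stood at 100% for 1 transcript in all 4 libraries. No transcript was tested. The genotypes did not overlap in isoform percent for 63 of the 138 transcripts. A mean difference of at least 20 points with no overlap between genotypes was seen in 2 transcripts, both of Ndufaf1 and chosen after their values were seen. As shares of the same gene, these 2 are not independent of each other. Ndufaf1-201 held 52.8% and 50.2% in KK against 25.8% and 11.8% in WT, with 135 and 103 expected counts in KK against 63.1 and 30.9 in WT. Ndufaf1-203 held 41.6% and 49.8% in KK against 71.8% and 85.7% in WT. Both are annotated as protein-coding transcripts of the gene at chr2:119655446-119662827 on the minus strand of GRCm38.

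Other genes of the pathway, taken from lists, showed larger changes in single genes. Of 40 other assembly factors tested, 4 were higher (10%) and 5 lower (12.5%), with a median log2 fold change of -0.08, where 22.0% of all genes were higher and 21.7% lower. Ecsit, which acts in complex I assembly, had 34.8 and 37.2 CPM in KK against 13.8 and 11.5 CPM in WT (1.51 ± 0.11, edgeR adjusted p = 2.22e-12), and Nubpl, which delivers iron-sulfur clusters to complex I, was at 1.21 ± 0.20. Coa5 (-0.39 ± 0.05) and Tmem186 (-0.37 ± 0.09) were lower. Of 29 genes for expression of mitochondrial DNA, 4 were higher (13.8%) and 11 lower (37.9%), with a median of -0.12, among them Fastkd2 (0.45 ± 0.10), Slirp (0.45 ± 0.14), Mterf1a (-0.62 ± 0.18) and the elongation factor Tsfm (-0.56 ± 0.16).

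Of 9 nuclear regulators tested, 1 was higher (11.1%), Pprc1 at 0.68 ± 0.24, and 2 were lower (22.2%), Yy1 at -0.57 ± 0.05 and Esrra at -0.37 ± 0.10. Of 19 citrate cycle genes, 5 were higher (26.3%) and 8 lower (42.1%), with a median of -0.08. Fumarase, Fh1, had 25.6 and 25.0 CPM in KK against 9.43 and 7.07 CPM in WT (1.62 ± 0.12, edgeR adjusted p = 5.64e-12), and the X-linked Idh3g was at 0.71 ± 0.25, while Dlat (-0.38 ± 0.04) and Dlst (-0.25 ± 0.04) were lower.

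Of 7 carriers and porins, 2 were higher (28.6%) and 1 lower (14.3%). The lower one was Slc25a31, the adenine nucleotide carrier of the testis, with 86.2 and 84.1 CPM in KK against 100.2 and 99.4 CPM in WT (-0.23 ± 0.05, edgeR adjusted p = 0.000369). Its X-linked counterpart Slc25a5 was higher (0.52 ± 0.21), as was the phosphate carrier Slc25a3 (0.20 ± 0.05). Without WT replicate 1 the calls of Slirp (edgeR adjusted p = 0.0748), Tsfm (0.101), Pprc1 (0.115), Idh3g (0.117) and Slc25a5 (0.273) were lost. Without KK replicate 1 those of Slirp (0.171), Idh3g (0.117) and Slc25a5 (0.0637) were lost, and without KK replicate 2 those of Pprc1 (0.257) and Slc25a5 (0.151).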

How the data were processed

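RNA-seq was made from pachytene spermatocytes enriched by centrifugal elutriation, in 2 KK and 2 WT libraries, with an unstranded kit, per the labels' protocols. Bowtie and the build mm10, also called GRCm38, come from the submitters' processing notes. The tool that estimated the counts is not given in the sources used here. The tables hold expected counts, TPM and effective lengths and, for transcripts, a percent of the gene's expression, per the file headers. The deposited expected counts were rounded to whole numbers for the tests. The TPM values deposited by the authors, which are divided by effective length and scaled to the same sum in each library, were used to compare levels between genes. The deposited isoform percent was used without change.

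Identifiers were named from GENCODE M21 (55104 of 55364 found). Members and lists were chosen with earlier results of these data known. Genotypes were compared with edgeR 4.0.16 in R 4.3.3 (TMM factors, default expression filter, quasi-likelihood fit, Benjamini-Hochberg over 16571 genes, threshold 0.05), and CPM are on the TMM scale. Pair shares were compared by exact permutation, two-sided. Copies were sought with blastn 2.17.0 at 95% identity over at least 100 bases. Alternatives were RLE, library size and autosomal factors, DESeq2 1.42.0, limma 3.58.1 on log2(TPM + 1), other filters, a replicate block, 2 length offsets and each library left out. Genes are named by rule: isoform pairs, X-linked genes, up to 3 risers and 3 fallers per complex, the 5 most abundant genes, Ddx4, genes at the edge of the count rule and up to 2 risers and 2 fallers per background list; further called genes are named to complete small counts. The values of 1 gene are not reported here.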

Additional observations from a re-analysis of the deposited data

How the results depend on the processing

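Counts of called genes moved with scaling, length treatment and single libraries. Under library size scaling 34 of the 90 genes were higher and 3 lower (median 0.14), and 64.2% of the calls over all genes were higher against 50.4% with TMM. The effective length offset gave 10 higher and 3 lower, and 2075 genes lower overall. The length trend offset gave 3 higher and 23 lower (median -0.060), and 3665 genes higher and 3562 lower overall. DESeq2 gave 11 higher, and 2405 higher overall; limma on log2(TPM + 1) gave 12 higher and 5 lower, and 2275 higher and 1551 lower overall. Leaving out each library gave 8 to 27 higher, 6 to 12 lower and medians of 0.0095 to 0.11. Uqcrfs1 and Atp5f1 (higher) and Ndufaf3 and Ndufaf7 (lower) were past the threshold under all 14 alternatives.

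With the main coding transcript in place of the gene, Cyct held 99.0% of its pair in KK and 99.0% in WT, Cox6b2 95.1% in KK and 97.1% in WT, and Cox7a2l 31.1% in KK and 31.4% in WT of its sum with Cox7a2. Small fold changes turned sign. The length trend offset gave -0.035 for Atp5g1, -0.090 for Cox4i1, -0.032 for Cox5a, -0.062 for Ndufa4 and -0.11 for Uqcrq. Library size scaling gave 0.0091 for Cox6b2, 0.041 for Cox7b2, 0.024 for Cycs and 0.0040 for Cyct. Cycs was at 0.27 with the effective length offset and 0.22 in limma. Over the libraries left out, Cycs ran from -0.17 to 0.032, Ndufa4 from -0.16 to 0.38, Uqcrq from -0.091 to 0.14 and Cox7b2 from -0.13 to 0.026. The causes were not tested.

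The genotypes share replicate numbers, but no label pairs the samples, and deviations of same-numbered samples correlated at -0.0575. With the replicate block 20 of the 90 genes were higher and 8 lower, and no call changed among the 42 that the naming rule took or the test called.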
